A study of Mus musculus with 2 samples.

Results

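The miR-148 and miR-152 family comprises 3 genes of the mouse, Mir148a, Mir148b and Mir152, each of which gives 2 mature microRNAs (miRNAs), one from either arm of its hairpin precursor. Its members were taken as every miRNA on the array whose name starts with mmu-miR-148a, mmu-miR-148b or mmu-miR-152. That gave 6 of the 1247 mouse miRNAs on the array and 14 of its 3101 probes. The tissue was knee joint cartilage from male animals at 8 weeks of age, hybridised to 1 array of a Col2a1Tsc1KO sample and 1 array of a control sample labelled wildtype. The series describes the knockout as a Col2a1-specific deletion of Tsc1, which takes away a restraint on the growth kinase complex mTORC1, in a study of osteoarthritis. The sources used here do not give the driver of the deletion beyond that name, the remaining alleles or the number of mice behind each sample. Cartilage was peeled from the joint, so both samples are bulk tissue, in which a change in the number of cells of a type and a change in the RNA of each cell cannot be told apart. With 1 array per group there is no replicate check of any difference and no p-value, and the standard errors given are over the repeated spots of a probe within the arrays, which hold technical noise alone.

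A miRNA guides the silencing machinery to messenger RNAs that pair with its seed, bases 2 to 8 counted from its 5′ end, so miRNAs with 1 seed share many targets. The 3p arms of this family are known for repressing the DNA methyltransferases that keep or set CpG methylation, Dnmt1 and, in human cells, DNMT3B, and for targeting the insulin-like growth factor receptor and its adaptor IRS1, which lie upstream of mTORC1. In human osteoarthritic chondrocytes, added miR-148a has been described to raise cartilage matrix and lower matrix-degrading enzymes, and in mouse and human cells miR-148a is also linked to osteoclast and fat cell formation.

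All 6 members were found by name among the RefSeq mature sequences (GRCm38.p6). The 3p arms are shown first because they are the arms that gave signal. Capitals mark the seed.
miR-148a-3p: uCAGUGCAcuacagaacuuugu
miR-148b-3p: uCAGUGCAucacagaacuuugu
miR-152-3p: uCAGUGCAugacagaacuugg
The 3 sequences have 1 seed, CAGUGCA, which no other mature miRNA in that table carries. miR-148a-3p lies at chr6:51269829-51269850 on the minus strand, miR-148b-3p at chr15:103285185-103285206 on the plus strand and miR-152-3p at chr11:96850439-96850459 on the plus strand. In the RefSeq gene table Mir148b lies within the span of Copz1 and Mir152 within that of Copz2, genes for the zeta subunits of the coatomer coat of transport vesicles, whereas Mir148a overlaps the predicted gene Gm38821 and has Nfe2l3 as the nearest other protein-coding gene.

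The 5p arms come from the opposite side of the same hairpins and have other seeds, again in capitals.
miR-148a-5p: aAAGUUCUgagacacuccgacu
miR-148b-5p: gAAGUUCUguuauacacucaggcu
miR-152-5p: uAGGUUCUgugauacacuccgacu
The seed AAGUUCU of miR-148a-5p is shared with miR-148b-5p and with no further miRNA in the table, and the seed AGGUUCU was found in miR-152-5p alone. The precursors are given with the 3p arm in capitals, to show the arm that was detected within the molecule it is cut from.
Mir148a: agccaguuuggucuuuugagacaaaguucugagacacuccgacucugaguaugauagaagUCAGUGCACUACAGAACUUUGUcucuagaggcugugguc
Mir148b: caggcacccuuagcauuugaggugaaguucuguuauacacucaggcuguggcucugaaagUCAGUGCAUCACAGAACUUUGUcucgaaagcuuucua
Mir152: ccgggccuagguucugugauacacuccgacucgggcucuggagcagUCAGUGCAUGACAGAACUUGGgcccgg

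Outside the seed the 3p arms differ at few bases, and the probes of the array differ at those bases. Counted from the 5′ end, miR-148a-3p and miR-148b-3p differ by C9U and U10C. miR-148a-3p and miR-152-3p differ by C9U, U10G and U20G, and miR-148b-3p and miR-152-3p by C10G and U20G, where miR-152-3p is also 1 base shorter. The probes are DNA strands complementary to the 3′ part of the miRNA. They are given in DNA letters with capitals at the bases opposite these differing positions, because they show how far a probe can tell relatives apart.
miR-148a-3p probe of 19 bases: acAaagttctgtAGtgcac
miR-148a-3p probe of 20 bases: acAaagttctgtAGtgcact
miR-148b-3p probe of 18 bases: acAaagttctgtGAtgca
miR-148b-3p probe of 19 bases: acAaagttctgtGAtgcac
miR-152-3p probe of 16 bases: cCaagttctgtCAtgc
miR-152-3p probe of 17 bases: cCaagttctgtCAtgca
Both miR-148a-3p probes leave 2 bases unpaired with miR-148b-3p and 4 with miR-152-3p. Both miR-148b-3p probes leave 2 bases unpaired with miR-148a-3p and 3 with miR-152-3p, and both miR-152-3p probes leave 3 unpaired with miR-148a-3p and 2 with miR-148b-3p. Whether a relative bound to these probes was not tested, and since probes differ in length and strength of pairing, differences were taken within a probe, between the arrays. Levels of different miRNAs are set together below only to find those of like pattern and in sums over cell type markers, and say nothing of which is more abundant.

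The 3p arm of each of the 3 genes was well above background on both arrays, and no 5p arm was so on either. Intensities are in the scanner's arbitrary units after background subtraction, and the scanner software's mark for well above background had to be set on over 50% of a probe's usable spots. On the Col2a1Tsc1KO array 21.1% and on the control array 19.6% of all miRNA spots carried that mark, and saturation was marked at none. The median intensity of the negative-control spots was 4.93 on the Col2a1Tsc1KO array and 5.02 on the control array.

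miR-152-3p stood higher on the Col2a1Tsc1KO array. Its 17-base probe had unscaled spot intensities from 433 to 536 with a median of 488 on the Col2a1Tsc1KO array, against 131 to 157 with a median of 139.5 on the control array (20 usable spots on each). The 16-base probe ran from 328 to 402 with a median of 363 on the Col2a1Tsc1KO array, and from 91.4 to 112 with a median of 103 on the control array (19 usable spots on each). For both probes every spot of the Col2a1Tsc1KO array lay above every spot of the control array, before scaling and after it. Before any background was subtracted the medians of the 17-base probe were 542 on the Col2a1Tsc1KO array and 192.5 on the control array.

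miR-148a-3p, the member studied in human osteoarthritic chondrocytes, was also brighter on the Col2a1Tsc1KO array, by a smaller ratio. Its 20-base probe had unscaled intensities from 1170.0 to 1290.0 with a median of 1260.0 over 14 spots on the Col2a1Tsc1KO array, against 540.0 to 591 with a median of 554 over 18 spots on the control array. The 19-base probe ran from 790.0 to 866 with a median of 809.5 over 18 spots on the Col2a1Tsc1KO array and from 345 to 381 with a median of 358 over 20 spots on the control array. Again no spot of one array reached the range of the other, before scaling and after it. The software marked 6 of the 20 spots of the 20-base probe as outliers on the Col2a1Tsc1KO array and 2 of 20 on the control array, and these were left out.

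miR-148b-3p gave dim signals that overlapped between the arrays. Its 19-base probe had unscaled intensities from 50.6 to 72.4 with a median of 63.1 on the Col2a1Tsc1KO array, against 35.3 to 52.8 with a median of 45.3 on the control array (19 usable spots on each). Its 18-base probe, which lacks only the last base of the longer one, had no spot marked well above background on either array, with medians of 7.03 over 16 spots on the Col2a1Tsc1KO array and 3.85 over 20 spots on the control array. All statements on the difference of miR-148b-3p thus rest on 1 probe.

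**Figure D1:**
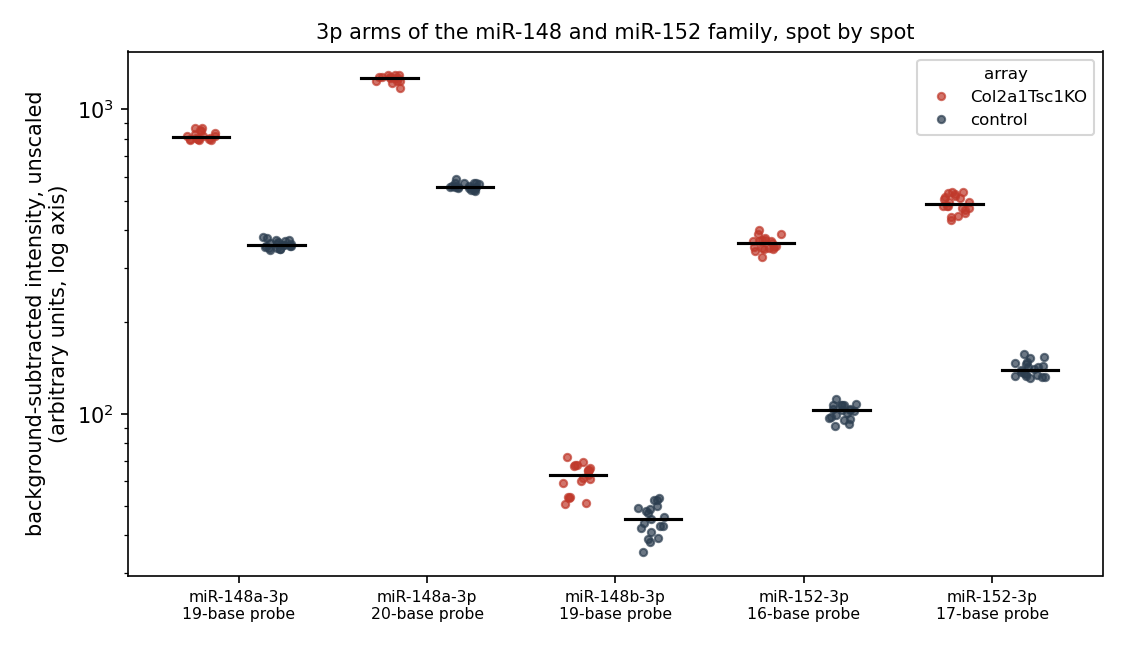
Background-subtracted intensity (arbitrary units, log axis, unscaled) of every usable spot of the 5 probes of the family that were well above background, Col2a1Tsc1KO array on the left and control array on the right of each pair, with a black bar at the median. The spots of miR-152-3p and miR-148a-3p form separate bands on the arrays, at medians of 488 on the Col2a1Tsc1KO array and 139.5 on the control array for the 17-base miR-152-3p probe, whereas those of the miR-148b-3p probe overlap between 50.6 and 52.8.

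The arrays differed in their general brightness, so the log2 intensities of each array were scaled to their 75th percentile, taken over those 476 probes that were well above background on both. That percentile was 0.41 higher on the log2 scale on the Col2a1Tsc1KO array, and scaling took this amount off every difference. A miRNA's difference is the mean over its probes of the scaled log2 intensity on the Col2a1Tsc1KO array minus that on the control array. For miR-152-3p the scaled intensity was 365 on the Col2a1Tsc1KO array and 138 on the control array, 2.65-fold or 1.41 ± 0.02 on the log2 scale (SE over spots). For miR-148a-3p it was 878 on the Col2a1Tsc1KO array and 517 on the control array, 1.699-fold or 0.76 ± 0.01 on the log2 scale. For miR-148b-3p it was 53.3 on the Col2a1Tsc1KO array and 51.6 on the control array, a log2 difference of 0.05 ± 0.05, which is smaller than its standard error. miR-152-3p was thus the single member to differ 2-fold or more, a log2 difference of 1 in either direction, which served as a threshold of size and not as a test.

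The separate probes of a member gave nearly the same difference. The 16-base and 17-base probes of miR-152-3p had log2 differences of 1.42 ± 0.02 and 1.39 ± 0.03, and the 19-base and 20-base probes of miR-148a-3p had 0.77 ± 0.01 and 0.76 ± 0.01. Because both arrays carry 1 layout, spots at the same position could also be set against each other. After scaling, the Col2a1Tsc1KO spot was at least 2-fold brighter at 20 of 20 positions of the 17-base miR-152-3p probe, with log2 ratios from 1.23 to 1.60. For the 20-base miR-148a-3p probe it was brighter at 13 of 13 positions, with log2 ratios from 0.67 to 0.81, none of them 2-fold. For miR-148b-3p it was brighter at 10 of 18 positions after scaling, with log2 ratios from -0.37 to 0.50, and at 18 of 18 before scaling.

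The members therefore differed among themselves in how far the arrays stood apart, and this contrast does not depend on any constant scaling factor, which cancels between members. The log2 difference of miR-152-3p exceeded that of miR-148a-3p by 0.64 ± 0.02 and that of miR-148b-3p by 1.36 ± 0.06 (SE over spots). That of miR-148a-3p exceeded that of miR-148b-3p by 0.72 ± 0.05. Each gap was larger than the spot-to-spot noise within the arrays, while the spread between animals was not measured. The order miR-152-3p, miR-148a-3p, miR-148b-3p held under all 14 settings examined, the main one included. Not all of these could have changed it. A percentile taken over every probe, median scaling and no scaling shift every difference alike. Asking for every spot to be well above background left the values of the 3 members as they were. With quantile normalization the sizes of the gaps changed by more than these errors. With the brightest probe only, or the median over spots, they changed by less. In the order given, the members stood at 1.55, 0.65 and 0.29 with quantile normalization. In the submitters' deposited log2 table they stood at 1.61, 0.53 and 0.23.

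Against all 257 miRNAs well above background on both arrays, miR-152-3p ranked 18, miR-148a-3p 52 and miR-148b-3p 102 from the highest difference. Of all 257, 15.6% were higher by 2-fold or more on the Col2a1Tsc1KO array, beside 1 of the 3 measured members, and 17.5% were at least 2-fold lower, beside none of the 3. A difference above 0 was found for 40.9% of all and for 3 of 3 members. The median log2 difference was 0.76 over the members and -0.22 over all. Relative to that median of all, miR-152-3p stood at 1.62, miR-148a-3p at 0.98 and miR-148b-3p at 0.26 on the log2 scale. The members all carry numbers below 200 in their names, and the 87 other measured miRNAs with such numbers had a median of 0.49. Among those 87, 58 had a difference above 0, 29 were past 2-fold toward the Col2a1Tsc1KO array and 10 toward the control array. miR-152-3p at 1.41 and miR-148a-3p at 0.76 lay above that median of 0.49, and miR-148b-3p at 0.05 lay below it. Whether the family stands apart from these 87 was not tested.

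**Figure D2:**
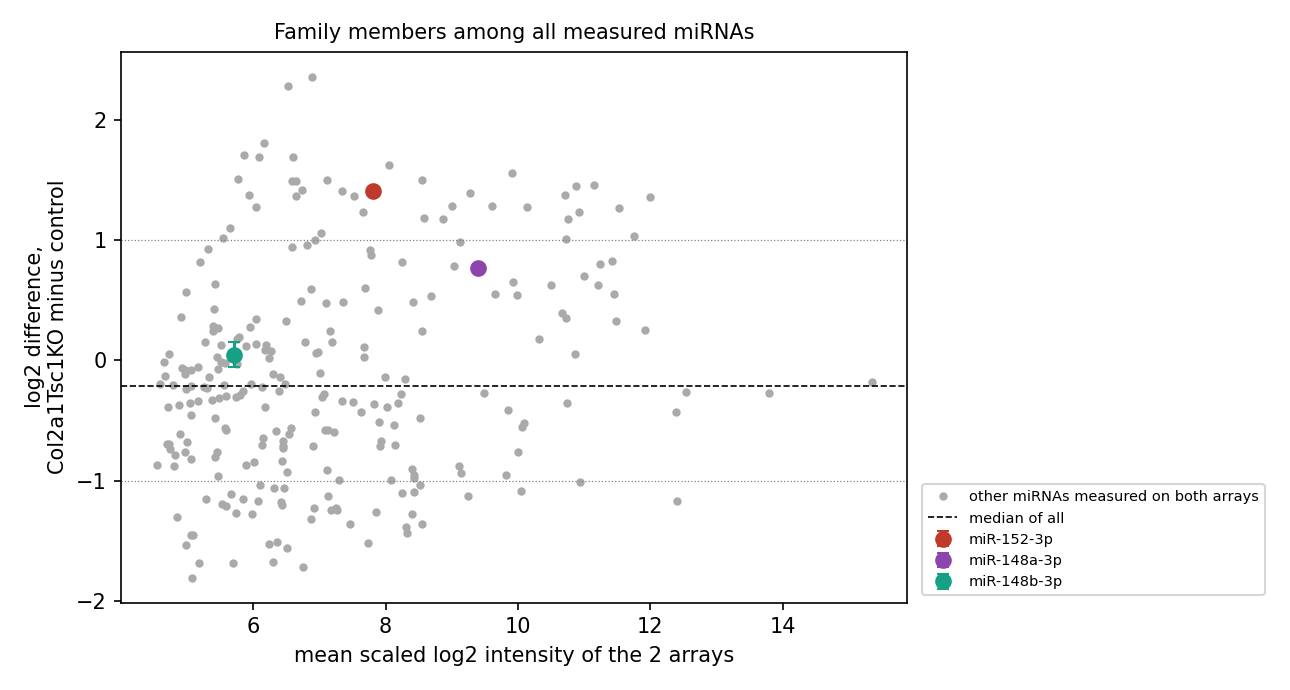
Log2 difference, Col2a1Tsc1KO minus control, against the mean scaled log2 intensity of the 2 arrays for the 257 miRNAs measured on both, 1 point per miRNA. Coloured points are the family members with bars of 2 standard errors over spots, hidden by the point where small, the dashed line is the median of all at -0.22, and dotted lines mark 2-fold. miR-152-3p lies at 1.41, miR-148a-3p at 0.76 and miR-148b-3p at 0.05.

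The zero of these differences is set by the scaling, so sizes are less firm than the order. With no scaling miR-152-3p stood at 1.82, miR-148a-3p at 1.18 and miR-148b-3p at 0.46, so that miR-148a-3p too passed 2-fold, but 59 of all 257 miRNAs then did so and 13 were at least 2-fold lower, against 40 and 45 at the main setting. Over the 13 alternatives and the main setting miR-152-3p ran from 1.17 to 1.90 and was past 2-fold in all 14. miR-148a-3p ran from 0.53 to 1.26 and was past 2-fold in 4 of 14. miR-148b-3p ran from -0.26 to 1.23.

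**Figure D3:**
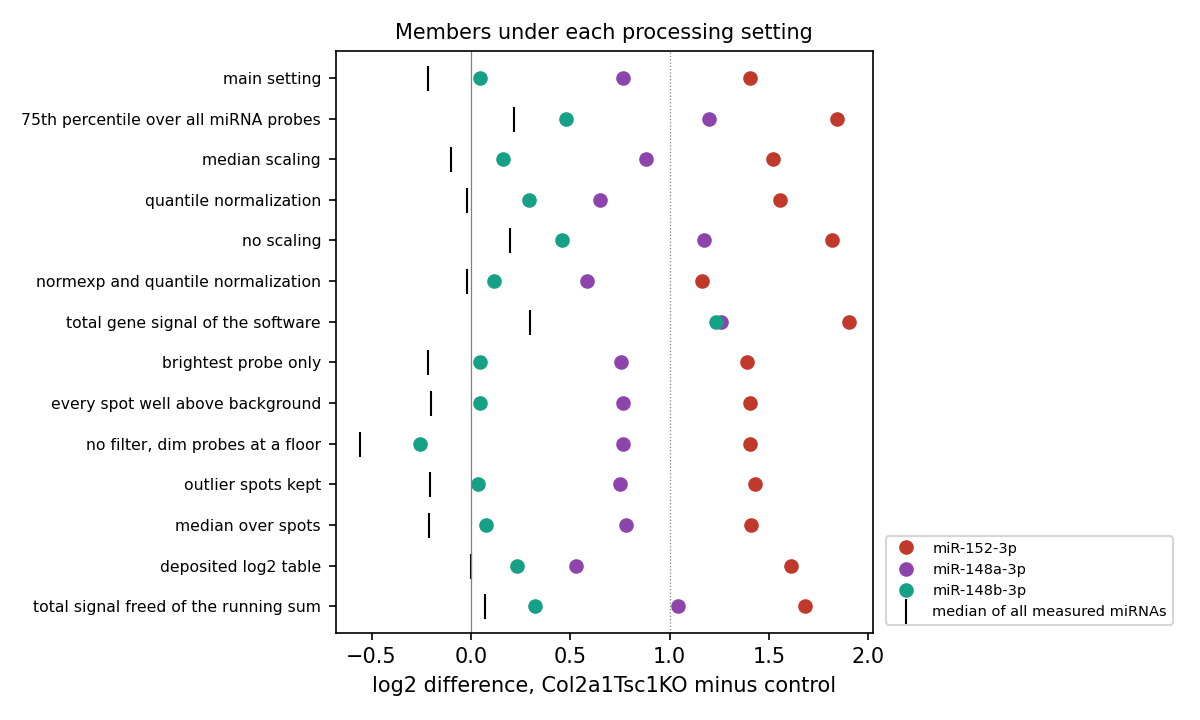
Log2 difference, Col2a1Tsc1KO minus control, of the 3 measured members under the main setting and the 13 alternatives (rows), with a black tick at the median of all miRNAs measured under that setting and a dotted line at 2-fold. miR-152-3p lies right of the dotted line in all 14 rows, and miR-148b-3p comes within reach of miR-148a-3p, at 1.23 against 1.26, with the total gene signal of the software.

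The highest of those values for miR-148b-3p, 1.23, comes from the total signal that the scanner software wrote for each miRNA, and here the numbers of 2 members are tied together. The total of miR-148b-3p was 842 on the Col2a1Tsc1KO array and 377 on the control array. Its own probes well above background had a total of 24.4 on the Col2a1Tsc1KO array and 17.6 on the control array. The total of miR-148a-3p was 818 on the Col2a1Tsc1KO array and 359 on the control array, and taking it off the total of miR-148b-3p left 24.4 on the Col2a1Tsc1KO array and 17.6 on the control array. Thus 97.1% of the total listed for miR-148b-3p on the Col2a1Tsc1KO array and 95.3% of that on the control array equals the total of miR-148a-3p. A total more than 1% above the sum over a miRNA's own probes well above background was present for 81 of 296 miRNAs on the Col2a1Tsc1KO array. On the control array this held for 82 of 281. Whether such an excess came from another miRNA or from a miRNA's own dimmer probes was not examined beyond this pair. From its own probes alone, without scaling, miR-148b-3p differed by 0.47 on the log2 scale, and from the listed totals by 1.16.

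In the submitters' deposited table of log2 values, whose method the sources used here do not give, miR-148b-3p does not carry that addition. It stands there at 4.48 for Col2a1Tsc1KO and 4.25 for control, a difference of 0.23. miR-152-3p stands at 8.34 for Col2a1Tsc1KO and 6.73 for control, a difference of 1.61, and miR-148a-3p at 9.37 for Col2a1Tsc1KO and 8.84 for control, a difference of 0.53. All 3 5p arms are at the lowest value of each column, -3.32 for Col2a1Tsc1KO and -3.26 for control.

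The 5p arms, the strands of these hairpins that are usually degraded, were measured by 8 probes and did not rise above the range of empty spots. None of their 116 usable spots on the Col2a1Tsc1KO array and none of their 118 on the control array was marked well above background. The medians of the 8 probes ran from -5.97 to 2.59 on the Col2a1Tsc1KO array and from -6.38 to 1.495 on the control array, and the brightest single spot had 6.60 on the Col2a1Tsc1KO array and 9.51 on the control array. The middle 95% of negative-control spots lay between -1.48 and 12.9 on the Col2a1Tsc1KO array and between -2.09 and 14.0 on the control array, so the lowest of these medians lay below that range. For miR-148a-5p 30 of 39 spots on the Col2a1Tsc1KO array and 35 of 38 on the control array were below 0 after background subtraction, and for miR-152-5p 32 of 39 on the Col2a1Tsc1KO array and 31 of 40 on the control array. No fold is given for the 5p arms, and a level below what these arrays detect is not shown to be absent.

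**Figure D4:**
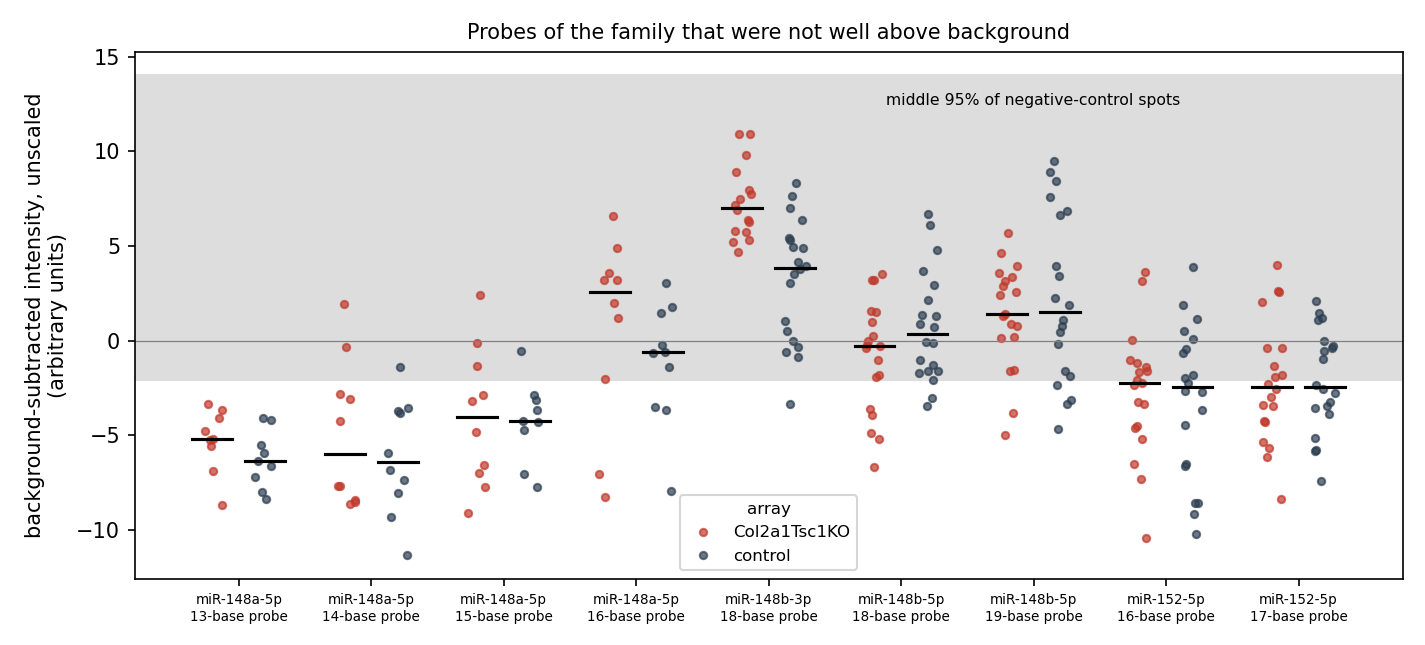
Background-subtracted intensity (arbitrary units, linear axis, unscaled) of every usable spot of the 9 family probes not well above background, Col2a1Tsc1KO array on the left and control array on the right of each pair, with a black bar at the median. The grey band spans the middle 95% of the negative-control spots over both arrays, from -2.09 to 14.0, and no spot of these probes lies above it.

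The miRNAs nearest to each member over the scaled log2 levels on the 2 arrays, by straight-line distance, were taken as most alike in pattern. They were miR-181a-5p, miR-130a-3p and miR-30a-5p for miR-152-3p, at log2 differences of 1.23 ± 0.02, 0.91 ± 0.01 and 0.88 ± 0.03. For miR-148a-3p they were miR-26b-5p, miR-195a-5p and miR-199b-5p, at 0.55 ± 0.02, 0.98 ± 0.02 and 1.39 ± 0.02. For miR-148b-3p they were miR-3107-5p, miR-127-3p and miR-185-5p, at 0.06 ± 0.03, -0.03 ± 0.04 and 0.17 ± 0.05. The distances ran from 0.06 to 0.47 on the log2 scale, and with 2 arrays they describe these values alone.

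Other miRNAs known to target DNA methyltransferase mRNAs in human or mouse cells mostly had more signal on the Col2a1Tsc1KO array. Of the 11 on this list 10 were measured, with a median log2 difference of 0.61. Toward the Col2a1Tsc1KO array 3 of them were past 2-fold and toward the control array none, beside 15.6% and 17.5% of all 257. All of the 10 but miR-342-3p carry numbers below 200 in their names. The 87 measured miRNAs with such numbers, these included and the family left out, had a median of 0.49. Of those 87, 29 were past 2-fold toward the Col2a1Tsc1KO array and 10 toward the control array. Whether the list stands apart from them was not tested. The highest on the list were the cartilage miRNA miR-140-5p at 1.38 ± 0.01 and miR-143-3p, a miRNA of smooth muscle and fibroblasts, at 1.37 ± 0.02. miR-101a-3p, at 1.0004 ± 0.02, lay at the threshold, and none of the 10 was past 2-fold with normexp background correction and quantile normalization together, against 2 with quantile normalization alone. The lowest were miR-101b-3p at 0.03 ± 0.05, within its error of 0, and miR-185-5p at 0.17 ± 0.05. Over the settings miR-101b-3p ran from -1.39 with the software's totals to 0.61 in the submitters' deposited table. Taken over its own probes well above background alone, the totals gave 0.30, so the -1.39 does not rest on those probes. With dim probes at a floor miR-101b-3p stood at -0.27 and with outlier spots kept at -0.04, so its direction is not settled. miR-126-3p, at 0.35 ± 0.01, turned to -0.15 with quantile normalization. The other 4 ran from 0.49 to 0.78 and are named here after their values were seen, miR-342-3p and the repressors of collagen mRNAs and of Dnmt3a and Dnmt3b, miR-29a-3p, miR-29b-3p and miR-29c-3p. Of these miR-29a-3p, at 0.62 ± 0.01, stood at 0.13 with quantile normalization and 0.02 in the deposited table. miR-377-3p was not well above background on both arrays.

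Cartilage miRNAs and markers of 5 further cell types had unequal signal on the arrays as well. miR-140-5p, a miRNA typical of cartilage, had a scaled intensity of 2713 on the Col2a1Tsc1KO array and 1046 on the control array. Past 2-fold toward the Col2a1Tsc1KO array were 3 of the 4 cartilage miRNAs, miR-140-5p at 1.38 ± 0.01, miR-140-3p at 1.006 ± 0.01 and miR-455-3p at 1.71 ± 0.05 on the log2 scale, beside 15.6% of all 257, and miR-455-5p stood at -0.03 ± 0.14. With quantile normalization the first 3 stood at 0.95, 0.60 and 1.93, and with normexp and quantile normalization together at 0.91, 0.57 and 0.85, where none was past 2-fold.

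The summed scaled intensity of the 4 skeletal muscle miRNAs was 737 on the Col2a1Tsc1KO array and 1410.4 on the control array. The log2 differences were -0.94 for miR-1a-3p, -0.99 for miR-133a-3p and -0.996 for miR-133b-3p, none of them past 2-fold, while miR-206-3p stood at 0.05 ± 0.08. The sum of the 4 leukocyte miRNAs was 4454 on the Col2a1Tsc1KO array and 9633 on the control array, of which miR-223-3p made up 3632 on the Col2a1Tsc1KO array and 8163 on the control array. miR-223-3p, miR-142-3p and miR-142-5p had log2 differences of -1.17, -0.95 and -0.59, and miR-150-5p went the other way at 0.64. The 2 red cell miRNAs found by name summed to 3472 on the Col2a1Tsc1KO array and 2340.4 on the control array, with log2 differences of 0.55 for miR-451a and 1.51 for miR-144-3p. The array has no miRNA under the name miR-486-5p, also listed for red cells, and whether it is measured under another name was not examined. The 2 endothelial ones summed to 1977 on the Col2a1Tsc1KO array and 1555 on the control array, with 0.35 for miR-126-3p and 0.14 for miR-126-5p. The 3 adipocyte ones summed to 330.5 on the Col2a1Tsc1KO array and 189 on the control array, with 1.69 for miR-193b-3p, 0.94 for miR-365-3p and -0.12 for miR-378a-3p. Directions that turned under an alternative were those of miR-451a, at -0.02 with quantile normalization, of miR-126-3p as given above, of miR-126-5p, at -0.21 with dim probes at a floor, of miR-378a-3p, at 0.29 with no scaling, of miR-455-5p, at 0.38 with no scaling, and of miR-206-3p, at -0.20 with dim probes at a floor. miR-150-5p turned only with the software's totals, to -3.65. It stood at 0.91 with these taken over its own probes well above background alone. Of the 16 markers of these 5 other cell types, 15 were matched by name and all 15 passed the background mark on both arrays. The part of these cell types in the differences of the family was not tested.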

How the data were processed

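Per the labels' protocols, total RNA of peeled knee cartilage was labelled with Cy3 and hybridised to one-colour Agilent mouse miRNA arrays. The deposited scanner files hold, per the submitters' processing notes and the file headers, spot intensities from Agilent Feature Extraction 10.7, with and without background subtraction and not scaled between arrays, for 52044 spots. The deposited log2 table, 1 row per miRNA, served as an alternative, made by the authors in a way the sources used here do not give. Group and position cannot be told apart, since the 2 arrays share 1 slide, and the number of arrays limits the precision.

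Spots marked as outliers were dropped, log2 intensities were averaged over the spots of a probe, and arrays were scaled to the 75th percentile of the 476 probes that passed the background mark on both. Alternatives covered the scaling, normexp background correction (limma 3.58.1, R 4.3.3, offset 50) combined with quantile normalization, the software's totals, the probe and spot summaries, the filter on dim probes, outlier spots and the deposited table. The remaining steps ran in Python 3.11.15 with pandas 2.3.3. Of these, only the step that takes the differences, at the main scaling, was tested on simulated data. Sequences are RefSeq's (GRCm38.p6), of which 1017 matched the 1247 miRNAs by name. Named were all members, the 3 miRNAs nearest to each measured member over the scaled log2 levels, the 2 highest and 2 lowest of the list of miRNAs targeting methyltransferases, and cell type markers, of which miR-486-5p was not found by name. Counts of 5 or fewer miRNAs were named in full. Members and lists were chosen with earlier results of these data known, and nothing here is independent support for a pattern already seen in them.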

Additional observations from a re-analysis of the deposited data

How the results depend on the processing

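No paired analysis was possible because each group had 1 array and the labels carry no replicate numbers. A value counted as moved when it changed by more than 1 standard deviation over spots. The median of all measured miRNAs was -0.22 at the main setting. It moved by 0.43 with a percentile taken over every probe, 0.12 with median scaling, 0.20 with quantile normalization and 0.41 with no scaling. It moved by 0.20 with normexp and quantile normalization together, 0.51 with the software's totals, 0.22 in the deposited table and -0.34 with a floor. With the totals taken over each miRNA's own probes well above background alone, called the freed totals, it moved by 0.29. Log2 differences of miR-152-3p, miR-148a-3p and miR-148b-3p, in this order, were 1.84, 1.20 and 0.48 with a percentile taken over every probe, 1.82, 1.18 and 0.46 with no scaling, 1.52 and 0.88 for miR-152-3p and miR-148a-3p with median scaling, and 1.55, 0.65 and 0.29 with quantile normalization. With normexp and quantile normalization together, which changes both choices, miR-152-3p stood at 1.17 and miR-148a-3p at 0.58, and the part of each was not tested. The software's totals gave 1.90, 1.26 and 1.23, and the freed totals, an alternative chosen after seeing the data, 1.68, 1.04 and 0.32. The deposited table gave 1.61 for miR-152-3p and 0.53 for miR-148a-3p. With dim probes at a floor miR-148b-3p stood at -0.26, because its 18-base probe then entered at the floor of each array. The median over the members is the value of miR-148a-3p in each of these, and the members at least 2-fold higher, 1 at the main setting, numbered 2 with a percentile taken over every probe, with no scaling and with the freed totals, and 3 with the software's totals. The methyltransferase list, with a median of 0.61 and 3 members at least 2-fold higher, had 1.04 and 6 with a percentile taken over every probe, 1.02 and 6 with no scaling, 0.42 and 0 with normexp and quantile normalization, 1.13 and 7 with the software's totals, and a median of 0.97 with the freed totals. Counts over all miRNAs at least 2-fold higher and lower were 40 and 45 at the main setting, 59 and 13 with no scaling or a percentile taken over every probe, 80 and 24 with the software's totals, 55 and 20 with the freed totals and 16 and 10 with normexp and quantile normalization. Each member stood above the median of all miRNAs in every one of the 14 settings, miR-148b-3p by as little as 0.14. These are not 14 separate checks. A percentile taken over every probe, median scaling and no scaling move members and median alike. With a floor the median was over 1247 miRNAs, most of them not well above background. With the software's totals most of the total of miR-148b-3p equals that of miR-148a-3p.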

Other observations

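miRNAs with low numbers stood higher in general on the Col2a1Tsc1KO array. The 87 measured miRNAs numbered below 200, without the family, had a median difference of 0.49, against -0.22 over all 257, and of them 29 stood higher by 2-fold or more and 10 lower.

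The array design lists 2 genome positions for each probe of the family. For all 8 probes of miR-148b and miR-152 one of them lies within the RefSeq interval of the mature miRNA, and for the 6 probes of miR-148a, the gene on the minus strand, neither does, although each probe is the exact complement of its miRNA. The positions of miR-148a given here are therefore RefSeq's.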
